A study of Mus musculus with 12 samples.

Results

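Krueppel-like factors Klf2, Klf3, Klf4, Klf9 and Klf13 were followed by every probe set annotated to them, which gave 9 of the 12422 probe sets that are not controls, and 5 of the 8251 genes with a probe set of their own. RNA of C57Bl/6 mice was measured on Affymetrix 3' expression arrays in 2 groups. The first comprised 8 arrays of leukemic cells, taken from the thymus of TEL-JAK2 mice when these were terminally ill. The second comprised 4 arrays of thymocytes from the thymus of wild-type mice aged 2 months. TEL-JAK2 is a fusion protein that joins part of the transcription factor TEL to the kinase domain of JAK2, which is then active without a cytokine signal. The age of the leukemic mice, the cells in which the transgene is expressed and the promoter that drives it were not stated in the labels used here. Each sample was a suspension of the dissociated organ and not a sorted population, so that in these bulk samples fewer cells of a type and less RNA per cell cannot be told apart. Values are log2 intensities, and differences are leukemia minus thymocytes on that scale.

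In the deposited values array brightness was alike, the median intensity ranging from 66.48 to 70.18. The authors made these values with RMA, which commonly equalizes arrays, so the medians do not tell how alike the arrays were before it. The share of probe sets above the control level was 59.6% to 65.4%, the control level being the 95th percentile of 19 control probe sets for bacterial and yeast transcripts on the same array. Over probe sets, the correlation was 0.961 to 0.993 between leukemias, 0.990 to 0.997 between thymocyte arrays, and 0.955 to 0.980 between arrays of different groups. The labelled cell type was borne by the markers of T-lineage cells, whose mean log2 level over 8 genes was 9.80 to 10.24 in leukemias and 9.90 to 10.03 in thymocytes, with Cd2 higher and Cd247 lower in leukemias and 6 not past the test. At an adjusted p under 0.05 in limma, 578 probe sets were higher in leukemias and 1227 were lower. Without thymocyte array 1 the number lower was 759, and without thymocyte array 2 it was 792. The titles carry a number of 4 digits for leukemias 2 to 5 and thymocytes 1 to 3 and none for the other 5 arrays, and values within these classes are given where they bear on a result. Among the 4 leukemia arrays and 1 thymocyte array without such a number, 3 probe sets were higher and 10 lower, so that calls could hardly be made there.

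Krueppel-like factors bind GC boxes and CACCC elements through zinc fingers at the C-terminal end, and they activate or repress transcription by the partners that their N-terminal parts recruit. In the T-cell lineage, KLF2 is low in double-positive thymocytes and is induced as single-positive cells mature, when it drives receptors for exit from the thymus and entry into lymph nodes, and it is known as a factor of quiescent T cells. KLF4 restrains proliferation of CD8 T cells, KLF3 is a repressor that works with the corepressor CtBP, KLF9 is induced by glucocorticoid and thyroid hormone, and KLF13 was found as an activator of the chemokine gene Ccl5 in T cells.

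The sequences before the annotated starts of the 3 genes on which the results turn are printed as the stretches in which factors of this family and their regulators could bind, 250 bases each, from RefSeq on the build GRCm38.p6, on the + strand. They lie at chr8:72318812-72319061 for Klf2, chr5:64803271-64803520 for Klf3 and chr19:23140976-23141225 for Klf9. In the Klf2 sequence capitals mark GC boxes (GGGCGG) and a match to the core of a MEF2 site (TAAATTTA). In the Klf3 sequence they mark GC boxes and CACCC elements. In the Klf9 sequence they mark a CACCC element, a STAT-type palindrome (TTCNNNGAA) and the core of a forkhead site, which is GTAAACA.
Klf2: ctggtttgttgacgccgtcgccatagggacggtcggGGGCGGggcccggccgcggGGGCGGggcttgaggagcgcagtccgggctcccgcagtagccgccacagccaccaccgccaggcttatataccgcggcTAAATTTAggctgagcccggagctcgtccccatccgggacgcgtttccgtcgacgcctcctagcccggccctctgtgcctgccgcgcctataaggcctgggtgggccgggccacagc
Klf3: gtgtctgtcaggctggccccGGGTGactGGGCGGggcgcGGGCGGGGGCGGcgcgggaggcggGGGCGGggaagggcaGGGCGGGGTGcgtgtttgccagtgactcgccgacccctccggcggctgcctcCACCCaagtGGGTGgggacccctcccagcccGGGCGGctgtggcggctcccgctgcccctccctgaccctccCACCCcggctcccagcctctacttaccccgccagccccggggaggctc
Klf9: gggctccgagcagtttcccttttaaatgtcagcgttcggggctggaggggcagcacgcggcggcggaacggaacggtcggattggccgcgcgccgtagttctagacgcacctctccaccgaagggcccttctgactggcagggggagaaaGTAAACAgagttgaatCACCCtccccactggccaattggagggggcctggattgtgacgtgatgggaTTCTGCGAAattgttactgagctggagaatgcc
Both strands were searched. The Klf2 stretch held 2 GC boxes, and its MEF2 match starts at position -117, counted back from the start of the gene. It also held 1 CACCC element, at position -19, which is not marked by capitals. The Klf3 stretch held 6 GC boxes and 5 CACCC elements, and 1 of these elements overlaps the end of a GC box. The Klf9 stretch held no GC box, and its forkhead, CACCC and STAT-type matches start at positions -100, -84 and -33. Over the same 250 bases of 32851 RefSeq promoters, a GC box occurred in 32.7%, a CACCC element in 52.0%, a STAT-type palindrome in 7.02%, the forkhead core in 3.17% and the MEF2 core in 0.502%. These matches describe the letters of the windows and no binding was measured.

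Across the members, Klf3 was lower in leukemias, Klf9 was higher, and Klf2, Klf13 and Klf4 did not pass the test. By probe sets, 2 of 9 were higher, 1 of them (Klf9 93527_at) below the control level on every array, and 2 of 9 lower, 4 in all, where 14.5% of all probe sets passed (4.65% higher and 9.88% lower). By genes, each represented by its brightest probe set, 1 of 5 was higher and 1 of 5 lower, where 16.6% of all genes passed (5.15% higher and 11.4% lower). The median difference over the 5 genes was -0.0067, and over all genes it was 0.0037. In the log2 intensities by array, Klf2 had the largest SD among leukemias of the 9 probe sets (0.57). Klf13 160617_at (0.49) and Klf3 100011_at (0.41) came next.

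**Figure D1:**
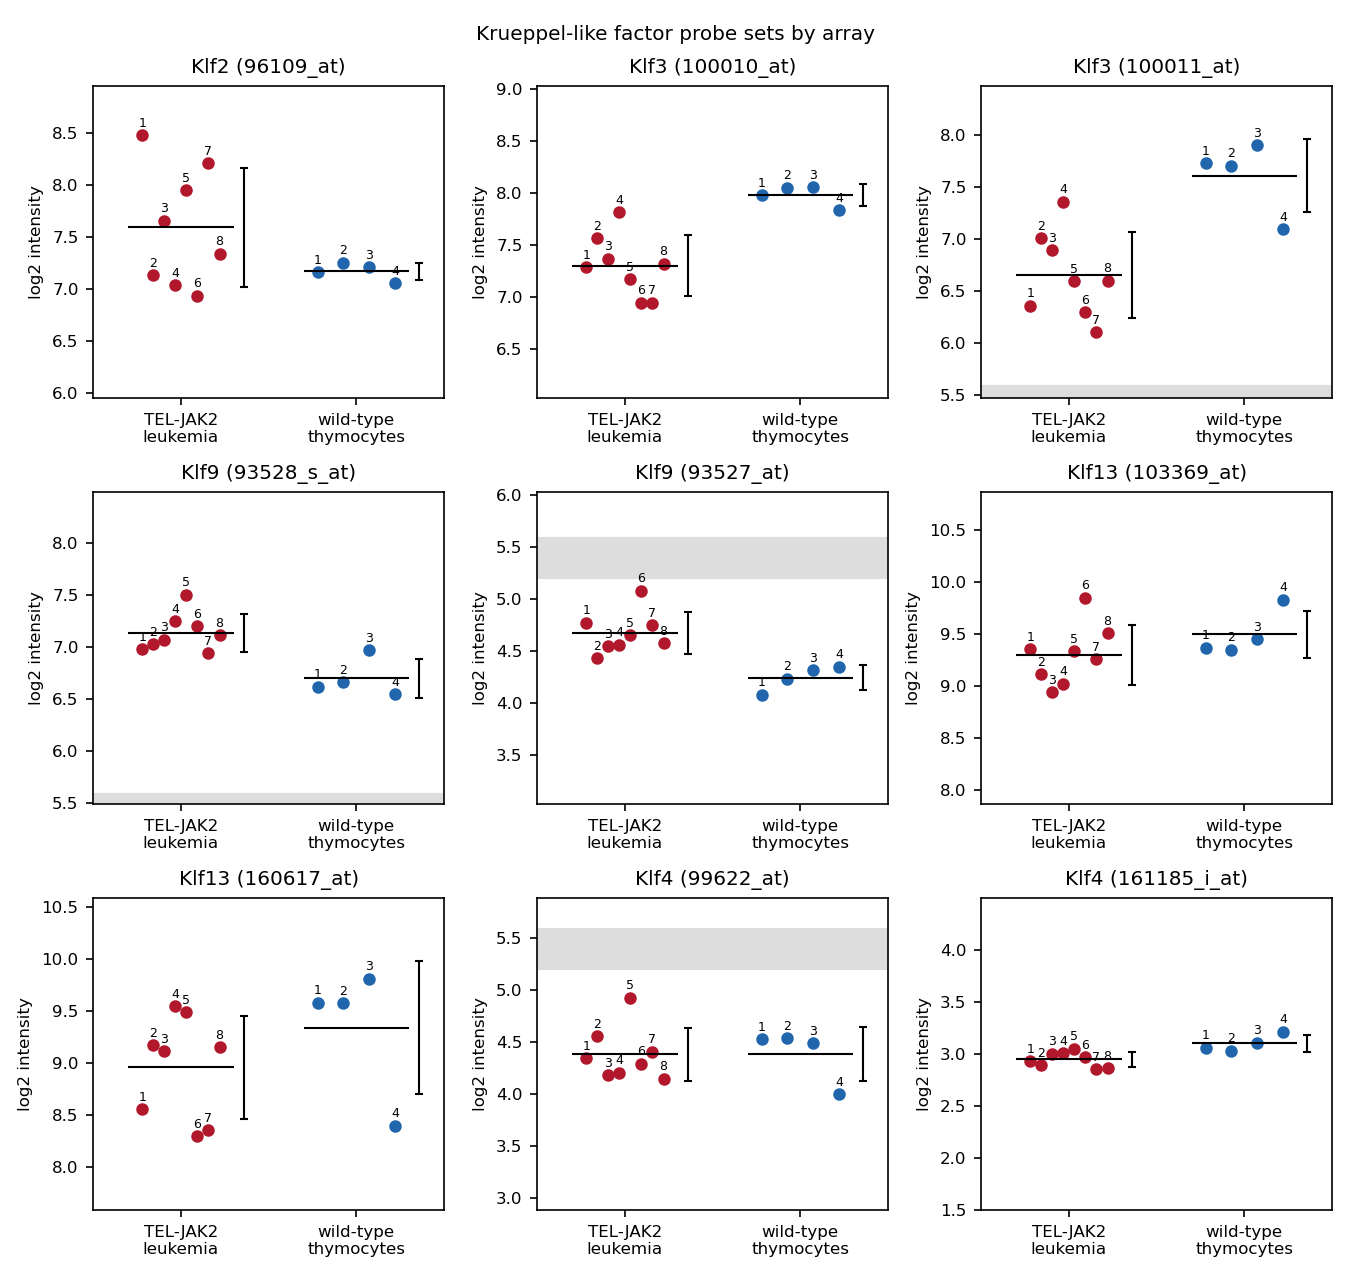
Log2 intensity (vertical axis) of the 9 member probe sets in the 8 TEL-JAK2 leukemia arrays (red, left) and the 4 wild-type thymocyte arrays (blue, right), with the array number beside each point, the mean as a line and the SD as a bar; the grey band is the range of the control level over arrays. All leukemia points of Klf3 100010_at lie below the thymocyte points, Klf2 runs from 6.94 to 8.48 in leukemias and from 7.06 to 7.26 in thymocytes, and both Klf4 probe sets and Klf9 93527_at lie below the control level on every array.

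Klf2 differed more among leukemias than between the groups. Its probe set 96109_at, on chromosome 8, read 8.48 in leukemia 1, 7.13 in leukemia 2, 7.66 in leukemia 3, 7.04 in leukemia 4, 7.95 in leukemia 5, 6.94 in leukemia 6, 8.21 in leukemia 7 and 7.34 in leukemia 8, against 7.16, 7.26, 7.21 and 7.06 in the 4 thymocyte arrays. Leukemias 1, 7, 5, 3 and 8 lay above every thymocyte array, leukemias 6 and 4 lay below every one, and leukemia 2 lay among them. The mean was 7.59 ± 0.57 (SD, n = 8) in leukemias and 7.17 ± 0.084 (SD, n = 4) in thymocytes, a difference of 0.42 (SE 0.26, 95% interval -0.14 to 0.98) that did not pass the test (adjusted p = 0.348). As a fold this is 1.34, with an interval from 0.909 to 1.97, so that a doubling is not reached by the interval and no difference is within it. The SD of Klf2 among leukemias was 6.87 times that among thymocytes and lay at percentile 96.7 of the SDs of all probe sets among leukemias. The order of the leukemias was not that of the title classes: the arrays without a 4-digit number held the highest value and the lowest. Within the classes the Klf2 difference was 0.24 (adjusted p = 0.537) among arrays with such a number and 0.68 (adjusted p = 0.847) among those without.

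The known transcriptional targets of KLF2 in T cells are receptors that guide exit and homing, and 7 of the 10 receptor genes listed were on the array. Of these, Itgb7 was higher in leukemias and 6 did not pass, which is 14.3% called, near the 16.6% of all genes. Itgb7, the beta chain of the gut-homing integrin alpha4beta7, read between 9.53 and 11.44 (median 10.82) in leukemias, against 9.20, 8.87, 8.69 and 8.69 in thymocytes. Every leukemia lay above every thymocyte array, as in 4.21% of all genes, with a difference of 1.84 (SE 0.29, adjusted p = 0.000819). S1pr4, a receptor for sphingosine-1-phosphate, read between 7.40 and 9.01 (median 7.82) in leukemias, against 7.30, 7.27, 7.15 and 7.11 in thymocytes. The S1pr4 groups did not overlap either, but its difference of 0.76 (SE 0.26) had an adjusted p of 0.0626, a call that depended on the setting. It passed without leukemia 1, 2 or 8 (0.0430, 0.0463 and 0.0436), with array weights (0.00848), under an exact rank-sum test (0.0378), among the brighter probe sets (0.0465) and among arrays with a 4-digit title number (0.0134). Differences were 0.53 (SE 0.26, adjusted p = 0.219) for the chemokine receptor Cxcr3 and -0.66 (SE 0.44, adjusted p = 0.388) for Il7r, the alpha chain of the receptor for interleukin 7.

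Within the leukemias, Klf2 ran with Cxcr3 and Il7r, of which only Cxcr3 was above the control level on every array. Cxcr3 read 7.31, 6.18, 6.48, 5.82, 6.70, 5.90, 7.26 and 6.27 in leukemias 1 to 8, against 5.88, 5.98, 5.93 and 6.06 in thymocytes 1 to 4. Leukemias 1, 7, 5 and 3 were the highest for Cxcr3 in the same order as for Klf2, and leukemias 6 and 4 were the lowest of both. The correlation of Klf2 with Cxcr3 over the 8 leukemias had Pearson's r = 0.978 (exact permutation p = 4.96e-05, adjusted 0.000446) and Spearman's rho = 0.976 (exact permutation p = 0.000397, adjusted 0.00357). When leukemias 1 and 7, whose Klf2 was farthest from the median, were left out, r was 0.960. Il7r read 6.85, 4.63, 4.84, 4.08, 6.00, 4.07, 5.20 and 4.86 in leukemias 1 to 8, against 6.18, 5.88, 5.63 and 5.24 in thymocytes. Only leukemia 1 lay above all thymocyte arrays for Il7r, 6 leukemias lay below all of them, and its level was above the control level on 3 of 8 leukemia arrays and 3 of 4 thymocyte arrays. Its correlation with Klf2 had r = 0.900 (exact permutation p = 0.00119, adjusted 0.00357) and rho = 0.952 (exact permutation p = 0.00114, adjusted 0.00513), and r was 0.930 without leukemias 1 and 7.

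S1pr1, the receptor through which mature thymocytes leave the organ, had 2 probe sets on the array, both below the control level on all 12 arrays. Probe set 161788_f_at read 4.76, 3.77, 4.43, 3.82, 4.40, 3.83, 4.85 and 4.09 in leukemias 1 to 8, against 3.97 to 4.33 in thymocytes. Probe set 101953_at read 3.36, 3.23, 3.18, 3.32, 3.38, 3.46, 3.33 and 3.19 in leukemias 1 to 8, against 3.32 to 3.49 in thymocytes. The first was highest in leukemias 7 and 1, where Klf2 was high, and the second in leukemia 6, where Klf2 was lowest. With Klf2 over the 8 leukemias, 161788_f_at had r = 0.962 (exact permutation p = 0.000595, adjusted 0.00268) and rho = 0.857 (exact permutation p = 0.0107, adjusted 0.0241), with r = 0.935 without leukemias 1 and 7. For 101953_at, computed after the data were seen and outside the adjustment, r was 0.085 (exact permutation p = 0.839) and rho was 0.024 (exact permutation p = 0.977), with r = -0.19 without leukemias 1 and 7. The probe sets thus differed in their relation to Klf2, and none is read for S1pr1 from signals below the control level. Ccr3, an eotaxin receptor, had r = 0.100 (exact permutation p = 0.820, adjusted 0.820) and rho = 0.214 (exact permutation p = 0.619, adjusted 0.619), and was also below the control level on every array. In all, 9 relations of Klf2, with S1pr1 by 161788_f_at, were computed and adjusted together. Those shown by gene were chosen after their values were seen, and the p-values do not account for that choice. The share of all genes that ran as closely with Klf2 was not computed, so that no relation is read as particular to these receptors. For S1pr4, Itgb7, Ccr7 and the double-positive score the leukemias fell into separate clusters, with a gap over 40% of their range, and no coefficient is given. Each title class holds 4 leukemias, and no coefficient is given over so few. Within both classes the order of the leukemias was the same for Klf2, Cxcr3 and Il7r, which was 5, 3, 2 and 4 from high to low among those with a 4-digit number and 1, 7, 8 and 6 among those without.

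**Figure D2:**
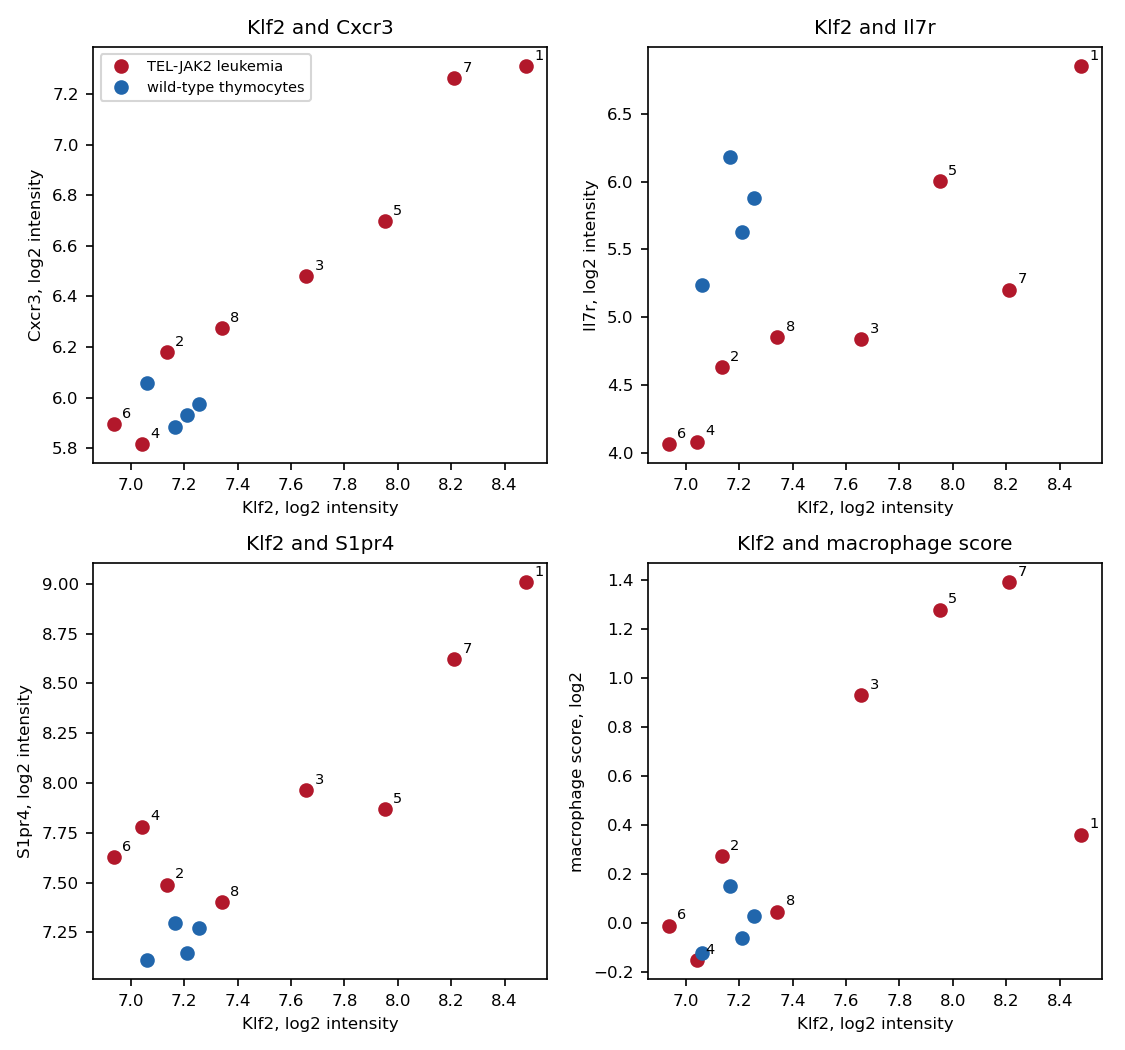
Cxcr3, Il7r and S1pr4 (log2 intensity, vertical axes) and the macrophage score (mean log2 difference from the thymocyte mean over 15 markers) against Klf2 (log2 intensity, horizontal axis), with leukemias in red and numbered and thymocytes in blue. Cxcr3 lies along a line with Klf2 from leukemias 4 and 6 to leukemias 1 and 7, while in the macrophage panel leukemia 1 lies away from leukemias 3, 5 and 7.

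Scores of macrophage markers and of thymocyte stages also differed among the leukemias. The macrophage list had 15 of 15 genes on the array and none passed the test (0 of 15). Over the alternatives the number higher ran from 0 to 6, and it was above 0 in 2 of 25. Its score, the mean over markers of the log2 difference from the thymocyte mean, was 0.36, 0.27, 0.93, -0.15, 1.28, -0.010, 1.39 and 0.047 in leukemias 1 to 8, against 0.15, 0.031, -0.061 and -0.12 in thymocytes. Leukemias 7, 5 and 3 had the highest macrophage scores, and leukemia 1, with the highest Klf2, had 0.36. Each marker was above the control level on at least 1 leukemia array, while 4 were above it on no thymocyte array. The score correlated with Klf2 at r = 0.679 (exact permutation p = 0.0723, adjusted 0.0814) and rho = 0.810 (exact permutation p = 0.0218, adjusted 0.0392) over the 8 leukemias, and at r = 0.938 without leukemias 1 and 7. After adjustment for this score the difference in Klf2 between the groups was 0.091 (adjusted p = 0.867).

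The late single-positive thymocyte list had 11 of 14 genes on the array, of which 5 were higher in leukemias (Itgb7, Ms4a6b, H2-D1, H2-K1 and B2m; 5.15% of all genes were higher) and none lower. Its score was 1.30, 0.50, 0.93, 0.48, 1.13, 0.090, 1.14 and 0.50 in leukemias 1 to 8, against -0.22 to 0.27 in thymocytes. Itgb7 is also a member of the receptor list. The double-positive list had 12 of 15 genes on the array, of which 7 were lower in leukemias and none higher, where 11.4% of all genes were lower. Its score was -3.15, -0.90, -1.17, -0.86, -1.49, -1.40, -2.47 and -1.49 in leukemias 1 to 8, against -0.10 to 0.073 in thymocytes. Leukemias 1 and 7, with the highest Klf2, had the lowest double-positive scores. Endothelial cells are rich in Klf2 as well, and of 13 endothelial markers none passed the test and 6 were above the control level on no leukemia array (7 on no thymocyte array), with a score between -0.092 and 0.14 in leukemias and between -0.071 and 0.049 in thymocytes. The part of the macrophage, late thymocyte and double-positive markers in the relations of Klf2 with the receptors was not tested.

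**Figure D3:**
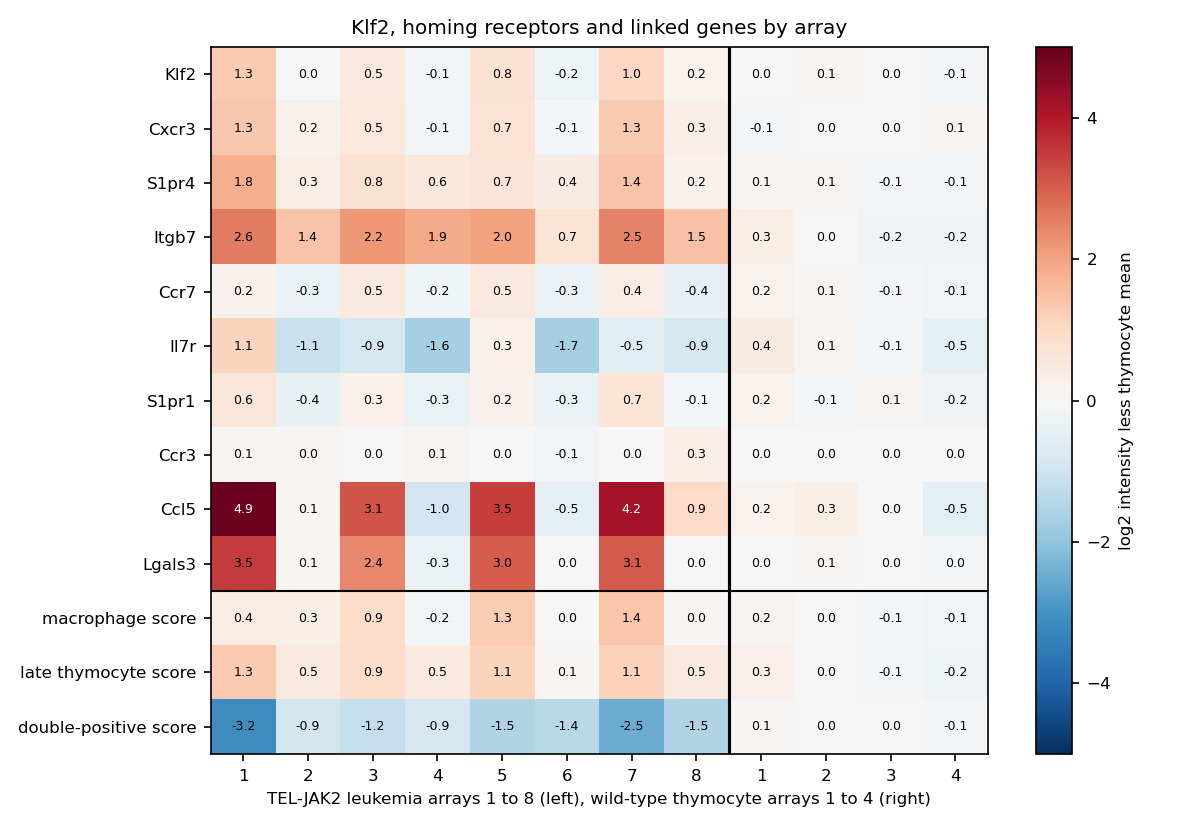
Log2 intensity less the thymocyte mean (colour and printed value) of Klf2, 7 receptors, Ccl5, Lgals3 and 3 marker scores (rows), in leukemias 1 to 8 (left of the line) and thymocytes 1 to 4 (right); S1pr1 and Ccr3 are below the control level throughout. Leukemias 1, 3, 5 and 7 are high in Klf2, Cxcr3, Ccl5 and Lgals3, and leukemia 1 has a macrophage score of 0.36 where leukemias 3, 5 and 7 have 0.93, 1.28 and 1.39.

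Klf3 was lower in leukemias by both of its probe sets, on chromosome 5. Probe set 100010_at read between 6.94 and 7.81 (median 7.30) in leukemias, against 7.98, 8.05, 8.06 and 7.83 in thymocytes. All leukemias lay below all thymocyte arrays for 100010_at, as in 6.84% of all probe sets and 8.11% of all genes by their brightest probe set, and leukemia 4 came closest. Its mean was 7.30 ± 0.29 (SD, n = 8) in leukemias and 7.98 ± 0.10 (SD, n = 4) in thymocytes, 1.60-fold lower in leukemias, with a difference of -0.68 (SE 0.14, adjusted p = 0.00513). Probe set 100011_at read between 6.11 and 7.36 (median 6.60) in leukemias, against 7.73, 7.71, 7.91 and 7.10 in thymocytes. Leukemia 4 lay above thymocyte array 4 and below the other 3, and the other 7 leukemias lay below all 4 thymocyte arrays. The mean was 6.65 ± 0.41 (SD, n = 8) in leukemias and 7.61 ± 0.35 (SD, n = 4) in thymocytes, 1.94-fold lower in leukemias, with a difference of -0.96 (SE 0.22, adjusted p = 0.00808). Both probe sets passed without each of the 12 arrays in turn.

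The Klf3 difference held its direction within each title class. It was -0.55 and -0.82 (100010_at and 100011_at) among arrays with a 4-digit number and -0.71 and -0.76 among those without, where the adjusted p was 0.314 and 0.276 with 1 thymocyte array. Adjusted for the macrophage score it was -0.56 (adjusted p = 0.0269) and -0.83 (adjusted p = 0.0396). Lgals3, the galectin-3 gene, which KLF3 represses in mice, read 8.003, 4.61, 6.91, 4.17, 7.55, 4.49, 7.58 and 4.53 in leukemias 1 to 8, against 4.54, 4.58, 4.49 and 4.48 in thymocytes. It was high in leukemias 1, 7, 5 and 3 and below the control level in the other 4 and in all thymocytes, and its difference was 1.46 (SE 0.74, adjusted p = 0.239). Lgals3 is also abundant in macrophages, whose score was high in leukemias 3, 5 and 7 as given above.

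Klf9 was higher in leukemias. Probe set 93528_s_at, on chromosome 19, read between 6.94 and 7.51 (median 7.10) in leukemias, against 6.62, 6.66, 6.97 and 6.55 in thymocytes. Leukemia 5 was the highest, and 7 of 8 leukemias lay above all thymocyte arrays, leukemia 7 falling just below thymocyte array 3. The mean was 7.14 ± 0.18 (SD, n = 8) in leukemias and 6.70 ± 0.19 (SD, n = 4) in thymocytes, 1.35-fold higher in leukemias, with a difference of 0.44 (SE 0.11, adjusted p = 0.0144). The call was lost without thymocyte array 1 (difference 0.41, adjusted p = 0.0585), 2 (0.42, 0.0523) or 4 (0.39, 0.0514), and the sign held in each. Probe set 93527_at read between 4.43 and 5.08 (median 4.62) in leukemias, against 4.08, 4.23, 4.32 and 4.35 in thymocytes. All leukemias lay above all thymocyte arrays for 93527_at, as in 3.84% of all probe sets, and it passed the test (adjusted p = 0.0151), except without thymocyte array 1 (adjusted p = 0.0703). It was below the control level on every array, so that no size is read from it and the Klf9 result rests on 93528_s_at.

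The Klf9 difference of 93528_s_at was 0.46 (adjusted p = 0.04996) among arrays with a 4-digit title number, 0.51 (adjusted p = 0.351) among those without, and 0.43 (adjusted p = 0.0431) after adjustment for the macrophage score. The glucocorticoid and thyroid hormone genes listed with it had 14 of 16 members on the array, of which 1 was higher and 1 lower, 14.3%, near the 16.6% of all genes. Ddit4, a stress- and glucocorticoid-induced inhibitor of mTORC1, was the one higher, at 9.76 ± 0.25 (SD, n = 8) in leukemias and 8.48 ± 0.18 (SD, n = 4) in thymocytes, a difference of 1.28 (SE 0.13, adjusted p = 3.15e-05). Thra, a thyroid hormone receptor, was the one lower, by a difference of -0.29 (SE 0.082, adjusted p = 0.0279), a call that was lost without any 1 of the 4 thymocyte arrays (adjusted p = 0.0590 to 0.0892). The glucocorticoid-induced genes Fkbp5 (0.47, adjusted p = 0.167), Dusp1 (0.60, adjusted p = 0.129) and Tsc22d3 (0.16, adjusted p = 0.236) and the glucocorticoid receptor Nr3c1 (0.30, adjusted p = 0.624) did not pass. With the title class as a block 3 genes of the list were higher, Dusp1 (adjusted p = 0.0331) and Txnip (0.0423) besides Ddit4, and with array weights 4 were, Fkbp5 (0.0401) among them. Among arrays with a 4-digit number Fkbp5 passed (0.0325). The list's median difference was 0.23, beside 0.0037 over all genes.

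Klf13, on chromosome 7, did not pass the test by either of its probe sets. Probe set 103369_at read between 8.95 and 9.85 (median 9.30) in leukemias, against 9.37, 9.35, 9.45 and 9.83 in thymocytes. The groups overlapped, and the difference was -0.20 (SE 0.15, 95% interval -0.53 to 0.13, adjusted p = 0.458). Probe set 160617_at read 8.55, 9.16, 9.11, 9.54, 9.48, 8.29, 8.35 and 9.15 in leukemias 1 to 8, against 9.57, 9.57, 9.81 and 8.39 in thymocytes. Leukemias 1, 6 and 7 and thymocyte array 4, all without a 4-digit title number, were low, and leukemia 8, also without one, was not. The difference of 160617_at was -0.38 (SE 0.29, 95% interval -1.01 to 0.24, adjusted p = 0.461), and among the arrays without a 4-digit number it was 0.19 (adjusted p = 0.948). Without thymocyte array 4 it was -0.70 (adjusted p = 0.106). The 2 probe sets went opposite ways on thymocyte array 4, which was the highest thymocyte array for 103369_at and the lowest for 160617_at. The signal of the 3' less the 5' control probe set of Actb lay between 0.39 and 0.54 in leukemias and between 0.36 and 0.59 in thymocytes.

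Ccl5, the chemokine gene that KLF13 activates in T cells, read 11.74, 6.95, 9.99, 5.88, 10.32, 6.35, 11.02 and 7.80 in leukemias 1 to 8, against 7.03, 7.12, 6.84 and 6.39 in thymocytes. Leukemias 1, 7, 5, 3 and 8 lay above all thymocyte arrays, and leukemias 4 and 6 lay below all. The difference was 1.91 (SE 1.01, adjusted p = 0.263), and the order of the leukemias was not that of either Klf13 probe set. Bcl2l1, the gene of the survival protein Bcl-xL, which KLF13 represses in mouse thymocytes, read between 8.31 and 9.30 (median 8.96) in leukemias and between 9.14 and 9.38 in thymocytes, a difference of -0.33 (SE 0.17, adjusted p = 0.246). Of the 9 genes listed as tied to KLF3, KLF4 or KLF13, 5 were on the array and 0 passed, and none passed in any of the alternatives run.

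Klf4 was at the foot of the scale in both groups. Probe set 99622_at, on chromosome 4, read between 4.14 and 4.92 (median 4.32) in leukemias, against 4.53, 4.53, 4.49 and 4.00 in thymocytes. Leukemia 5 was the highest array and thymocyte array 4 the lowest. The other probe set, 161185_i_at, averaged 2.94 ± 0.072 (SD, n = 8) in leukemias and 3.10 ± 0.080 (SD, n = 4) in thymocytes. The differences were -0.0067 (SE 0.14, adjusted p = 0.986) for 99622_at and -0.16 (SE 0.061, adjusted p = 0.118) for 161185_i_at. Both probe sets were below the control level on all 12 arrays, so that a change in Klf4 was not detectable by them.

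Of 21 other family genes listed, 10 were on the array, of which 1 was higher in leukemias, 2 were lower and 7 did not pass, where 5.15% of all genes were higher and 11.4% lower. Klf6, an early-response factor, was higher, at 7.69 to 8.41 (median 7.94) in leukemias and 7.23 to 7.43 in thymocytes, with a difference of 0.72 (SE 0.13, adjusted p = 0.00216). All leukemias lay above all thymocyte arrays for Klf6, as in 3.84% of all probe sets. Klf10, a factor induced by TGF-beta, was lower by both probe sets, each with all leukemias below all thymocyte arrays, as in 6.84% of all probe sets. Its probe set 99603_g_at read 7.26 to 8.17 (median 7.76) in leukemias and 8.31 to 8.44 in thymocytes, a difference of -0.64 (SE 0.14, adjusted p = 0.00555), and that of 99602_at was -0.60 (SE 0.14, adjusted p = 0.0105). Klf7 was lower by a difference of -0.70 (SE 0.16, adjusted p = 0.0105), with leukemia 4 at 6.54 above the lowest thymocyte array. The Klf7 call was lost without thymocyte array 1 (adjusted p = 0.0501) or 2 (0.0526) and after adjustment for the macrophage score (0.0509). Sp1, a general GC-box activator, had a difference of -0.53 (SE 0.31, adjusted p = 0.325) and its relative Sp3 one of -0.60 (SE 0.28, adjusted p = 0.186). Sp1 had an array pattern close to that of Klf13 160617_at, in which leukemia 8 was not low. Thymocyte array 4 was at 6.23 for Sp1 and the other thymocyte arrays at 7.54 to 7.70. Leukemias 1, 6, 7 and 8, also without a 4-digit number, read 5.82 to 6.83 for Sp1. Leukemias 2 to 5, with such a number, read at least 7.09. The Sp1 difference was -0.47 (adjusted p = 0.00494) among arrays with a 4-digit number and 0.099 among those without. Sp3 was likewise lower in leukemias 1, 6, 7 and 8 than in leukemias 2 to 5, which read at least 8.04. For Sp3, thymocyte array 4 was at 8.08 and the other thymocyte arrays at 8.27 to 8.47. The differences of Klf1, Klf5, Klf12, Klf17 and Sp4 by their brightest probe sets lay between -0.23 and 0.15 and did not pass.

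**Figure D4:**
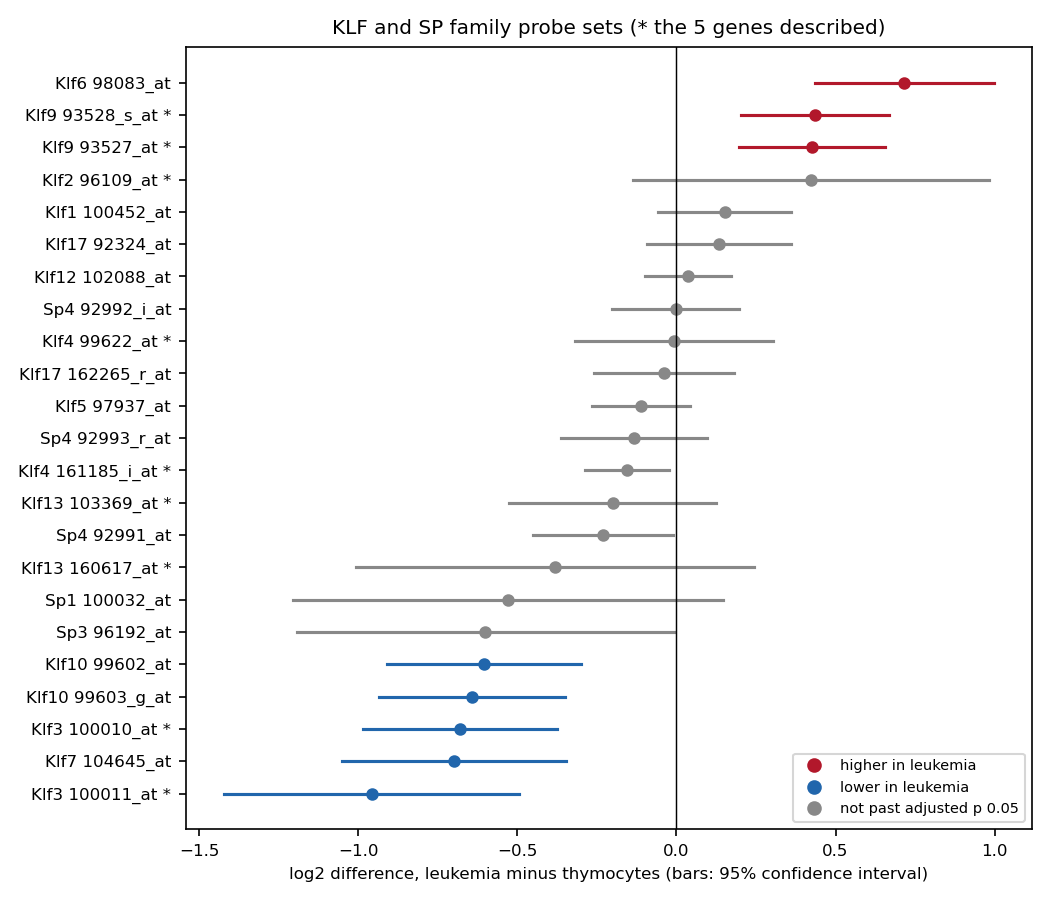
Difference in log2 intensity, leukemia minus thymocytes (horizontal axis), with its 95% interval, for each KLF and SP probe set on the array (rows), with an asterisk at the 5 member genes and colour by the limma call over all probe sets. Klf6 and both Klf9 probe sets lie to the right of 0, both probe sets of Klf3 and of Klf10 and that of Klf7 to the left, and the interval of Klf2 spans 0.

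The genes of several proteins through which these factors act were lower in leukemias. Of 18 corepressors, acetylases and ubiquitin ligases listed, 14 were on the array, of which 6 were lower, none were higher and 8 did not pass. The share of all genes that were lower was 11.4%. Among arrays with a 4-digit title number 3 were lower, Sin3b (adjusted p = 0.0655), Hdac1 (0.0861) and Rbbp4 (0.160) not passing there, while 8 were lower with the title class as a block. The median difference over the list was -0.37, beside 0.0037 over all genes. Hdac2, a histone deacetylase, read 6.47 to 7.55 (median 7.11) in leukemias and 7.92 to 8.03 in thymocytes, with a difference of -0.92 (SE 0.19, adjusted p = 0.00468). The scaffolds Sin3a and Sin3b, which bind KLF9 and KLF13 among others, differed by -0.50 (SE 0.10, adjusted p = 0.00508) and -0.60 (SE 0.13, adjusted p = 0.00699). Hdac1 differed by -0.45 (SE 0.10, adjusted p = 0.00888) and the histone-binding subunit Rbbp4 by -0.35 (SE 0.089, adjusted p = 0.0159), a call that was lost without thymocyte array 2 (0.0610) or after adjustment for the macrophage score (0.0806). Sap30, another subunit of the Sin3 complex, passed as well (adjusted p = 0.00402) but lay below the control level on every array, so that no size is read. Ctbp1, the corepressor that KLF3 recruits, differed by -0.32 (SE 0.11) with an adjusted p of 0.0615, which passed without leukemia 2 (0.0499), leukemia 4 (0.0200) or thymocyte array 4 (0.0496) and with the title class as a block (0.0450). Its paralog Ctbp2 was below the control level on every array.

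**Figure D5:**
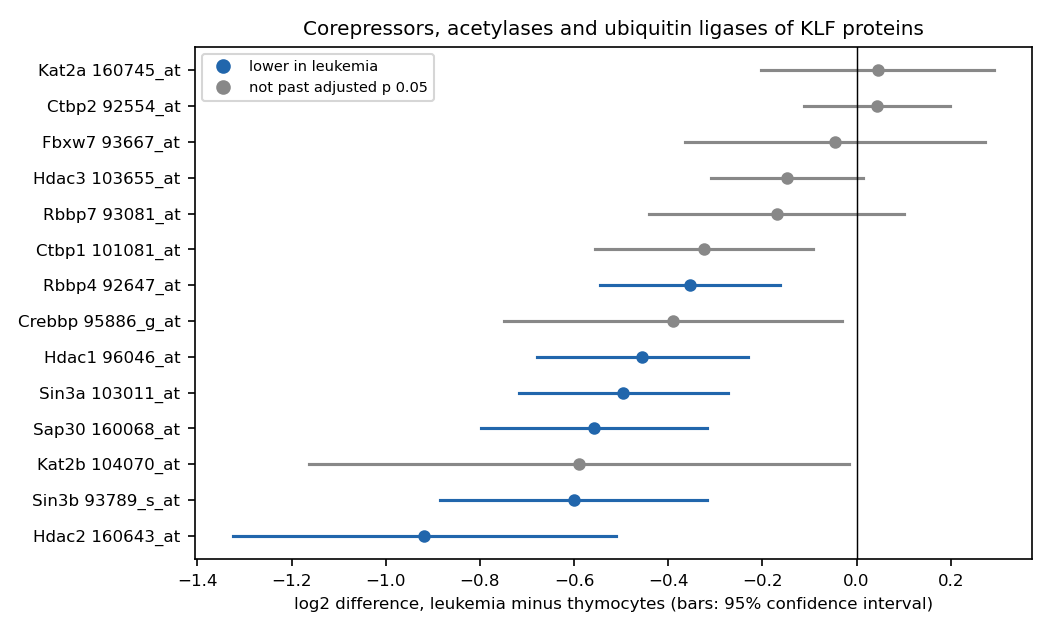
Difference in log2 intensity, leukemia minus thymocytes (horizontal axis), with its 95% interval, for the 14 listed cofactors of KLF proteins on the array (rows), with those past an adjusted p of 0.05 in blue. The 6 in blue, all lower in leukemias, are Hdac2, Sin3b, Sap30, Sin3a, Hdac1 and Rbbp4.

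Klf2 and Klf4 are induced by ERK5 through MEF2 factors, and Klf2 is held on by FOXO factors, which PI3K signalling removes from the nucleus. Of 17 genes listed for these pathways, 15 were on the array, of which 1 was higher and 1 lower, 13.3%, near the 16.6% of all genes. Pik3cd, the catalytic PI3K subunit of leukocytes, was higher, at 8.81 to 10.01 (median 9.34) in leukemias and 8.25 to 8.53 in thymocytes, a difference of 1.005 (SE 0.21, adjusted p = 0.00462). Hdac7, a deacetylase that holds MEF2 factors silent in thymocytes, was lower by a difference of -0.64 (SE 0.16, adjusted p = 0.0159), a call that was lost without thymocyte array 1 (0.0652) and after adjustment for the macrophage score (0.0551). Mef2a differed by -0.85 (SE 0.27, adjusted p = 0.0547), which passed without leukemia 2 (0.0339) or 4 (0.0147) and with the title class as a block (0.0380). Hdac5 differed by -0.38 (SE 0.14, adjusted p = 0.0981), which passed without leukemia 1 (0.0366) or 7 (0.0289), with that block (0.0456) and among arrays with a 4-digit number (0.00916). The number lower in this list was 3 with the block and 6 with array weights, against 1 as reported. Mapk7, which encodes ERK5, differed by -0.23 (SE 0.092, adjusted p = 0.120), its activator Map2k5 by -0.23 (SE 0.18, adjusted p = 0.485), and Foxo3 by -0.057 (SE 0.24, adjusted p = 0.920).

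Cell cycle inhibitors and other quiescence genes, with which KLF2 and KLF4 are linked, mostly did not pass. Of 19 listed, 17 were on the array, of which 2 were higher, 3 lower and 12 not past the test, with a median difference of -0.057, where 5.15% of all genes were higher and 11.4% lower. The CDK inhibitor genes Cdkn2c (0.61, SE 0.13, adjusted p = 0.00631) and Cdkn1a (0.32, SE 0.083, adjusted p = 0.0208) were higher. Cdkn1a was lost without thymocyte array 1 (adjusted p = 0.0848), 2 (0.0872) or 3 (0.0532). The retinoblastoma gene Rb1 was lower (-0.83, SE 0.19, adjusted p = 0.00770). Rb1 was above the control level on only 1 of 8 leukemia arrays and 3 of 4 thymocyte arrays, so that its size is uncertain. It did not pass under an exact rank-sum test (adjusted p = 0.0591). The CDK inhibitor gene Cdkn2d was lower as well (-0.31, SE 0.087, adjusted p = 0.0300). The related Cdkn1c passed (adjusted p = 0.00421) below the control level on every array, so that no size is read. Cdkn2d was lost without any 1 of the 4 thymocyte arrays (adjusted p = 0.0591 to 0.0931).

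The genes whose pattern over the 12 arrays was most like that of each changed member were found by the root mean square difference between log2 values less the thymocyte mean, over all genes. For Klf3 (100010_at) they were Chtop (0.120), Mapk8 (0.121) and Ipo11 (0.131), with differences of -0.71, -0.68 and -0.58. For Klf9 (93528_s_at) they were Mgst2 (0.132), Wipf1 (0.155) and Txnip (0.159), with differences of 0.54, 0.39 and 0.35. For Klf2, which did not pass the test and was added after its values were seen, they were Ggct (0.138), Cxcr3 (0.144) and Golm1 (0.147). Cxcr3, the second of these among all genes, is the receptor described above.

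Of the other cell types looked for, granulocyte genes differed most in count, with 4 of 7 lower in leukemias (S100a8, S100a9, Ngp and Camp; 11.4% of all genes were lower) and a score between -0.80 and -0.36 in leukemias and between -0.15 and 0.18 in thymocytes. No member of the B-cell list (8 on the array) or the fibroblast list (8) passed, 1 of 7 erythroid genes was higher, 1 of 4 NK-cell genes was lower, and 1 of 6 thymic epithelial genes was higher and 1 lower. The B-cell score was 0.18, 0.24, 0.40, 0.16, 0.48, -0.072, 0.61 and 0.18 in leukemias 1 to 8, against -0.033 to 0.023 in thymocytes. The part of B cells in the values of Klf2 was not tested. Immediate-early and heat-shock genes, listed because they respond to handling of cells, had a median difference of -0.035, and the part of handling was not tested. Their score lay between -0.50 and -0.099 in leukemias and between -0.072 and 0.093 in thymocytes. Of these 15 genes 5 were lower and none higher, where 11.4% of all genes were lower and 5.15% higher. Among them Egr1 differed by -1.54 (SE 0.15, adjusted p = 1.51e-05), Egr2 by -1.21 (SE 0.17, adjusted p = 0.000297), Nr4a1 by -1.07 (SE 0.15, adjusted p = 0.000369) and Zfp36 by -0.87 (SE 0.11, adjusted p = 0.000155). Egr2 was above the control level on only 4 of 8 leukemia arrays, and on all 4 thymocyte arrays. Klf6 and Klf10 are known as early-response genes in other cells, and the part of handling in the values of Klf6 and Klf10 was not tested.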

How the data were processed

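RNA was measured in 12 thymic cell suspensions, 8 of leukemic cells and 4 of thymocytes, with total RNA purified on columns and labelled with biotin, per the labels' protocols. The deposited values are probe set intensities on a linear scale that the authors made with RMA, per the submitters' processing notes, with no version stated. Only the numbers in the titles point to separate animals. The p-values therefore reflect the spread between samples, which may be technical, and the number of arrays limits the precision. Intensities were converted to log2 without an offset. Of 12488 probe sets, 66 were Affymetrix controls and 12422 were tested, two-sided, with lmFit and eBayes of limma 3.58.1 under R 4.3.3, without covariates and with Benjamini-Hochberg adjustment over all 12422. Adjusted p-values are from this model unless an alternative, an array left out or a class of arrays is named with them. Each of those fits was adjusted over the probe sets or genes that it tested. The p-values of correlations are adjusted over 9 relations. Per the platform annotation, which can be old, 10833 probe sets had 1 gene, 396 had several and 1193 had none. Genes with more than 1 probe set were represented by the one with the highest mean over the 12 arrays. Scores are means over a list of the log2 difference from the thymocyte mean.

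The members, the 19 lists and the alternatives were chosen with earlier results of these data known. Genes were named by a rule: all members and family genes, up to 4 genes with the largest moderated statistic in each pathway list, up to 2 of the brightest in each marker list, and the 3 genes most like each changed member. Other genes named, and the relations of Klf2 shown by gene, were chosen after their values were seen. In data simulated from these arrays, 96% of the changes of log2 size 1 and 100% of those of size 2 were recovered. There were 8 false calls among the unchanged probe sets, of 12422 probe sets simulated in all. Values were drawn independently, with the same SD in both groups of a probe set, unlike the wider leukemia spread of genes such as Klf2. All member differences were smaller than log2 size 1, and no smaller change was simulated, so that these shares do not apply to the members. The alternatives were quantile normalization, centring, an offset of 16, the brighter probe sets, trend and robust variance, array weights, a rank-sum test, a stricter threshold, averaging a gene's probe sets, title classes, the macrophage score as covariate, and each array left out. No sequences of proteins or probes are shown.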

Additional observations from a re-analysis of the deposited data

Results flagged for a closer look

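In groups of 4 or 8 arrays, a single array was looked for whose gap to its nearest neighbour was a large part of the group's range (a share above 0.829 for 4 arrays and above 0.526 for 8). Of 146 groups looked at, 14 held such an array, and chance alone gives about 5% of groups. Thymocyte array 4 was the array in 6 of the 14.

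Among the members, Klf4 99622_at was low on thymocyte array 4 (log2 4.00 beside 4.49 to 4.53, gap share 0.915), below the control level. Klf13 160617_at was also low there (8.39 beside 9.57 to 9.81, gap share 0.835). Thymocyte array 4 was likewise low for Sp1 (gap share 0.897), and high for Thy1 (0.860), Pecam1 (0.846) and Klrk1 (0.848). Thymocyte array 1 was high for Hdac2 (0.853), for Ddit4 (0.884) and for Sp4 92992_i_at (0.908), the last below the control level. Leukemia 4 was high for Klf7 (6.54 beside 5.65 to 6.01, gap share 0.597) and for Sp4 92992_i_at (0.681). Leukemia 7 was low for Thra (0.620) and for Sp4 92993_r_at (0.666). Leukemia 8 was low for the T-cell receptor subunit gene Cd3e (10.22 beside 10.88 to 11.34, gap share 0.591).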

How the results depend on the processing

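The direction of Klf3, Klf9, Klf2 and Klf13 103369_at held in every alternative run. No paired analysis was possible because the replicate numbers follow the order of the accessions and pair no arrays. Over all probe sets the number higher (578) was 333 at an adjusted p under 0.01, 1340 with array weights and 3 among the arrays without a 4-digit title number, and the number lower (1227) was 675, 2060 and 10. Leaving out 1 array gave 390 to 618 higher and 759 to 1426 lower. Among the arrays without a 4-digit number, with 1 thymocyte array, Klf3 no longer passed (-0.71 and -0.76), nor did Klf9 (0.51 for 93528_s_at and 0.45 for 93527_at). Under an exact rank-sum test Klf3 100011_at (-0.96) and Klf9 93528_s_at (0.44) did not pass, and at an adjusted p under 0.01 neither did Klf9 (0.44 and 0.43). With 1 array left out, Klf9 lay between 0.38 and 0.53 (93528_s_at, past the threshold in 9 of 12) and between 0.37 and 0.46 (93527_at, 11 of 12). The sign of Klf4 99622_at, near 0, turned with centred arrays (0.0052), with the title class as a block (0.059) and in arrays without a 4-digit number (0.30), and ran from -0.14 to 0.042 with 1 array left out. In arrays without a 4-digit number the sign also turned for Klf13 160617_at (0.19), Sp1 (0.099) and Il7r (0.0049). Of 950 counts of list members under the alternatives, 856 were within 1.5 times the reported count and 94 were not. Klf4 and the second Klf9 probe set are limited by signal, being below the control level.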
